A study of Mus musculus with 2 samples.

Results

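The 36 genes described here are the transcripts of glycolysis and of the response to low oxygen: 4 glucose and lactate transporters, 14 glycolytic enzymes, 3 regulators of the flux through the pathway, 2 oxygen-sensitive transcription factors and 13 of their target genes. They were chosen by symbol, with no measured value in the rule, and all 36 were among the 31053 genes counted in both libraries. They stood on 37 rows, because Aldoa was listed under 2 gene identifiers. The second Aldoa row held 3 and 1 UMIs (unique molecular identifiers, the molecules counted) and was not used further.

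Glycolysis splits glucose into pyruvate in the cytosol. Glucose enters through GLUT transporters, hexokinases trap it, phosphofructokinase commits it to the pathway, and lactate dehydrogenase turns the pyruvate into lactate, which leaves through monocarboxylate transporters. The hypoxia-inducible factors HIF-1α (gene Hif1a) and HIF-2α (Epas1) are hydroxylated by the EGLN enzymes when oxygen is plentiful and are then degraded; in low oxygen they pair with ARNT and bind a short core motif near their targets, which include most glycolytic enzymes. Sprouting endothelial cells are known for their reliance on glycolysis, and the PFKFB3 enzyme is known to set its rate in them.

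The study profiled sorted liver endothelial cells (viable by DAPI exclusion, negative for the leukocyte marker CD45 and positive for the endothelial marker CD31) by droplet-based single-cell RNA sequencing. Each library came from a single adult mouse, 1 heterozygous (sph/+) and 1 homozygous (sph/sph) for sphinx, a mutant allele of Gimap5. Both mice were on the C57BL/6 background, and both carried the allele, so no animal without it was measured. Sphinx is a germline allele, carried by all cells of the animal. With 1 library per genotype there was no replicate check: genotype, mouse, sort and library preparation cannot be told apart, no test was run, and every interval given is a 95% interval that covers counting error only.

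After filtering, 10967 sph/+ cells (median 4418 UMIs) and 11331 sph/sph cells (median 3888 UMIs) were kept, of which 10229 (93.3%) and 10675 (94.2%) were endothelial-like by their markers. They held 47269552 and 51198941 UMIs. The libraries shared 30 cell barcodes before filtering and 17 after it. The CD45 gene Ptprc gave 3 UMIs in each library, and all 13 pan-endothelial markers were at or above 20 CPM (counts scaled to the library total). Gimap5 itself stood at 105 CPM in the sph/+ library and 104 CPM in the sph/sph library, a count that does not read the allele. The kinds of cell differed almost completely: 97.7% of the sph/+ endothelial-like cells were like liver sinusoidal endothelial cells (LSEC-like) and 82.0% of the sph/sph cells were like continuous vascular endothelium, and in 21 of 25 clusters over 95% of the cells belonged to a single library. Fewer cells of a type and less RNA per cell cannot be told apart in the sums over a library that follow.

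The promoters of these genes were read from RefSeq on GRCm38.p6, as windows of 300 bases (250 before a transcript start to 50 after it). Windows were found for 32 of the 36 genes, but not for Slc2a3, Epas1, Bnip3l and Ndrg1. The motif was thus not read in Bnip3l and Ndrg1, the 2 HIF targets at least 2-fold lower in sph/sph. The core motif of HIF binding, ACGTG or GCGTG on either strand, stood in at least 1 window of 30 of these 32 genes (93.8%). These included all 11 HIF targets with a window and 12 of 14 enzymes. Without it were the enzymes Gpi1 and Tpi1. The motif was also common elsewhere: 46.7% of all 27025 genes with a window held it, and 70.3% of the 6023 genes of the table that were measured in these endothelial cells. The longer E-box CACGTG, which other factors bind, holds ACGTG on both strands and stood in 7.15% of all 32851 windows. A match is a description of the letters and not a binding site.

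The windows of the 4 genes with the largest ratios between the libraries among those at or above 20 CPM, Ankrd37, Slc2a1, Pfkfb3 and Adm, are shown first, followed by those of Egln1 and Higd1a, HIF targets whose levels barely differed. Each is written 5′ to 3′ on the strand of the gene, with the core motif, read on either strand, in capitals.
Ankrd37, chr8:45999801-46000100, minus strand: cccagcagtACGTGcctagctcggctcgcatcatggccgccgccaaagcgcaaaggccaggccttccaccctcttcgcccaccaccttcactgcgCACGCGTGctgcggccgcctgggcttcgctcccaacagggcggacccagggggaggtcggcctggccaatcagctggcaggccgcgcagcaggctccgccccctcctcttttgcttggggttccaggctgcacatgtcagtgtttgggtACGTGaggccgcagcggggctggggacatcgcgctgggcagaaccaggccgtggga
Slc2a1, chr4:119108495-119108794, plus strand: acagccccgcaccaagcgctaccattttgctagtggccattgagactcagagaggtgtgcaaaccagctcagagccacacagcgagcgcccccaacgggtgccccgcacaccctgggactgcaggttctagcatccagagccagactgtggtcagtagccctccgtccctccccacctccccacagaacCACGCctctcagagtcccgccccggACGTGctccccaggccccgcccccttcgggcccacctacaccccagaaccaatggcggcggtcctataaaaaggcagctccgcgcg
Pfkfb3, chr2:11553880-11554179, minus strand: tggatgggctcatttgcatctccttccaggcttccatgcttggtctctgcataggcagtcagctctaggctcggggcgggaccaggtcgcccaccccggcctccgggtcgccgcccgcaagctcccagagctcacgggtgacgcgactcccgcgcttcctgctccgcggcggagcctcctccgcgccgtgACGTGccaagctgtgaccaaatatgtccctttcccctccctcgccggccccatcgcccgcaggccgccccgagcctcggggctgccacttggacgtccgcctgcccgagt
Pfkfb3, chr2:11502041-11502340, minus strand: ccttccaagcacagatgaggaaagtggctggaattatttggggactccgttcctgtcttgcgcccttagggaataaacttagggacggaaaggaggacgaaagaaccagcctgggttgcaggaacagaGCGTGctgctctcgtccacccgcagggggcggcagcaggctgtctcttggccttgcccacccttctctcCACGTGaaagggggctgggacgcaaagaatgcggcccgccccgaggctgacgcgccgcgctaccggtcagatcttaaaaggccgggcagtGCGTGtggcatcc
Adm, chr7:110627407-110627706, plus strand: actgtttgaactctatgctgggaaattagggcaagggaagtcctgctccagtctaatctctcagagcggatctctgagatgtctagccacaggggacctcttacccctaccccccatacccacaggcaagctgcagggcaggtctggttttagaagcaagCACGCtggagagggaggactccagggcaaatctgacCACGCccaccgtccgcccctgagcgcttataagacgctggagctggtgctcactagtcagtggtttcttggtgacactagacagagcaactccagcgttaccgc
Egln1, chr8:124949205-124949504, minus strand: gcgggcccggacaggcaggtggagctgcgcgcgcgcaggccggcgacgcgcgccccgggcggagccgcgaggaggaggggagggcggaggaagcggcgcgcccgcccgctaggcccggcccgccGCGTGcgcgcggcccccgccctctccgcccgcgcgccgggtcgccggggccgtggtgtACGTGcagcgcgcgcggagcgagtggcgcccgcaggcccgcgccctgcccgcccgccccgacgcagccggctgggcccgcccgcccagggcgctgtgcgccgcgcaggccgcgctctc
Higd1a, chr9:121857747-121858046, minus strand: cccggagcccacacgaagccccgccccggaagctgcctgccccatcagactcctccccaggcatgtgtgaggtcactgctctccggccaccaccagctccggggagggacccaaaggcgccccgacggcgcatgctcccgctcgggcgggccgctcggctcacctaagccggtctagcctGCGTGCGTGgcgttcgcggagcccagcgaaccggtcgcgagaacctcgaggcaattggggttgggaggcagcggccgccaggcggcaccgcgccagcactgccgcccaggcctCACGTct
The Ankrd37 window held 4 matches, 1 of them 6 bases before the transcript start, and 2 that overlap in the run CACGCGTG. The Slc2a1 window held 2 matches, the Adm window 2 and the Pfkfb3 windows 1 and 4. The genes whose levels barely differed were not poorer in the motif, with 2 matches for Egln1 and 3 for Higd1a.

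Where a pair of levels is given for a gene or a sum, that of sph/+ stands first. Levels were compared between the libraries as CPM over all endothelial-like cells, with the log2 ratio of sph/sph over sph/+ taken after adding 1 CPM to both. A gene was called measured at 20 CPM or more in either library, and higher or lower at a 2-fold difference. Of the 36 genes 28 were measured, 3 of them (Slc2a1, Ankrd37 and Bnip3) only through their level in sph/sph. Such an entry by itself favours a high ratio. A 2-fold or larger excess in sph/sph was seen for 9 of the 28, among them Slc2a1 and Ankrd37, and a 2-fold or larger deficit for 2. Among all 7468 measured genes the shares were 11% and 10.6%. The median log2 ratio was 0.72 for the 28 and −0.07 for all measured genes, and 23 of the 28 had a log2 ratio above 0. Together the 36 genes made up 0.354% of the endothelial UMIs in sph/+ and 0.544% in sph/sph.

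**Figure D1:**
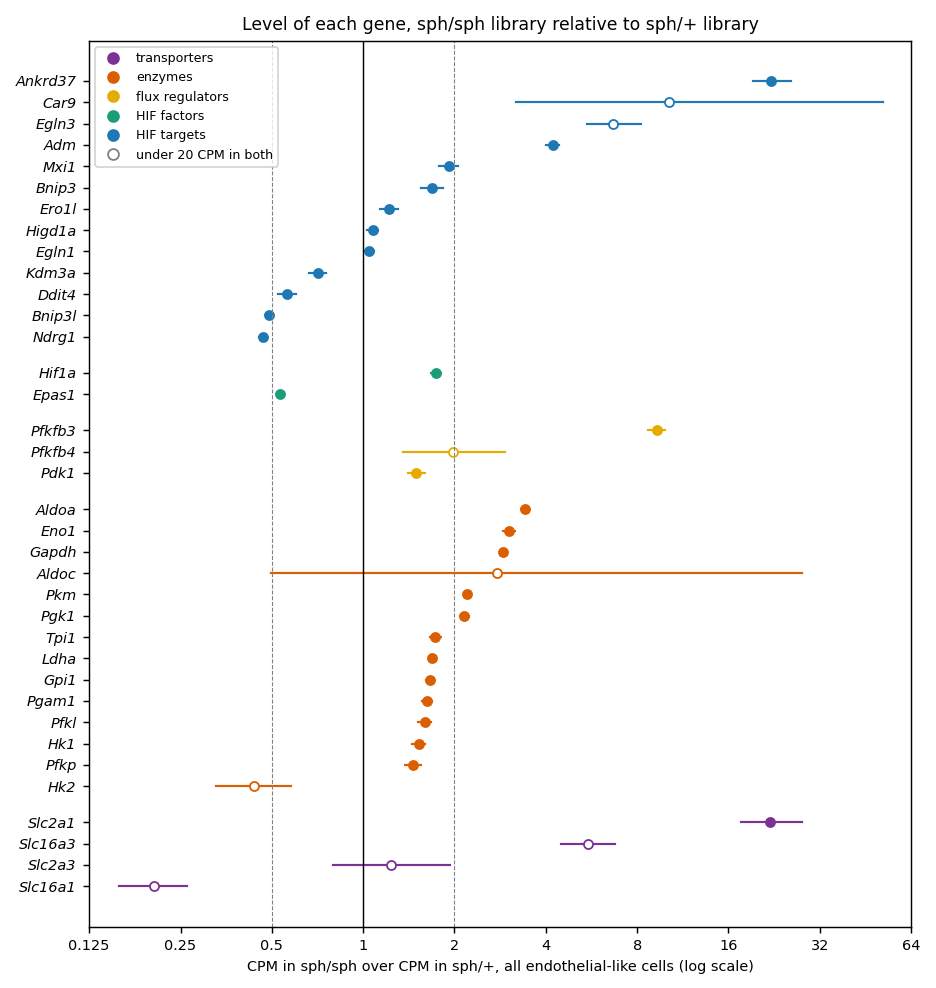
Ratio of the CPM of each of the 36 genes in all endothelial-like cells, sph/sph over sph/+, on a log axis, grouped by role, with 95% counting intervals as bars and dashed lines at 2-fold either way. Filled points are the 28 measured genes and open points those under 20 CPM in both libraries. The filled enzyme points all lie to the right of 1, from Pfkp at 1.46 to Aldoa at 3.40, whereas the HIF targets run from 0.468 for Ndrg1 to 22.2 for Ankrd37.

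Among the transporters, the glucose carrier GLUT1 differed most. Slc2a1, which encodes it (chromosome 4, 119108711 to 119137983), stood at 1.67 CPM in sph/+ (79 UMIs) and 36.7 CPM in sph/sph (1880 UMIs). That is 22.0-fold higher in sph/sph (17.5 to 27.9). The other 3 stayed under 20 CPM in both libraries. Slc16a3, the lactate exporter MCT4, was at 2.35 and 12.9 CPM. The opposite order was seen for Slc16a1, the MCT1 carrier, with 7.17 and 1.46 CPM. For Slc2a3, the high-affinity carrier GLUT3, the 38 and 51 UMIs gave a ratio of 1.24 whose interval, 0.798 to 1.94, includes 1.

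The enzymes shifted together, each by a moderate amount. Of the 14 listed, 12 were measured, and all 12 had a higher level in sph/sph. Of these, 5 were at least 2-fold higher, beside 11% of all measured genes. At least 1.5-fold higher were 11, for which the share over all genes was not counted, and none was lower. The median log2 ratio of the 12 was 0.77. Summed over the 14 enzymes, the level was 1606 and 3635 CPM, a ratio of 2.26 (2.24 to 2.28). No measured enzyme reached 4-fold, against 22.0-fold for the transporter Slc2a1.

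In the first, energy-consuming steps the 4 measured enzymes before aldolase differed by 1.46-fold to 1.66-fold. Hexokinase 1 (Hk1), which phosphorylates glucose, stood at 55.2 and 84.1 CPM in sph/+ and sph/sph. The inducible hexokinase Hk2 was scarce, at 3.34 and 1.46 CPM, and was lower in sph/sph by 2.28-fold (1.72 to 3.04). Glucose-6-phosphate isomerase (Gpi1) was at 129 and 213 CPM. Liver-type and platelet-type phosphofructokinase, Pfkl and Pfkp, were at 55.5 and 88.5 CPM and at 36.2 and 52.7 CPM. Hk2, the hexokinase usually counted among HIF targets, was the only enzyme with a ratio clearly below 1. Aldolase A (Aldoa, chromosome 7), which splits the phosphorylated sugar, was the enzyme with the widest difference, at 172 and 587 CPM (3.40-fold, 3.32 to 3.49). Aldoc, the brain-type aldolase, gave 2 and 6 UMIs.

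Lower in the pathway, the glyceraldehyde-phosphate dehydrogenase Gapdh stood at 327 and 944 CPM (2.88-fold, 2.83 to 2.94). Enolase 1 (Eno1) stood at 54.5 and 165 CPM (3.02-fold, 2.89 to 3.16). Phosphoglycerate kinase 1 (Pgk1), which makes the first ATP of the pathway and lies on the X chromosome, was at 104.5 and 225 CPM. The pyruvate kinase gene Pkm, whose splice forms 3′-end counts do not separate, was at 298 and 654 CPM. These 4 and Aldoa are the 5 enzymes past 2-fold. Pgk1 fell short of it without the lymphatic-like cells (log2 ratio 0.88), without these and the cycling cells (0.84), with cells weighted equally (0.81) and at equal depth (0.89). Short of it were Tpi1 (triose-phosphate isomerase, 65.9 and 114 CPM), Pgam1 (phosphoglycerate mutase, 80.9 and 131 CPM) and Ldha (lactate dehydrogenase A, 223 and 376 CPM). Gapdh, Eno1, Pgam1, Ldha and Aldoa have near-identical copies or pseudogenes in the mouse genome, and how the authors' counting divided such reads is not known, so their levels are less certain than those of single-copy genes.

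Among the flux regulators, Pfkfb3 stood out. Its product makes fructose 2,6-bisphosphate, the strongest known activator of phosphofructokinase. Pfkfb3 (chromosome 2, 11471433 to 11554077) was at 20.9 and 193 CPM, 9.27-fold higher (8.68 to 9.91). Pfkfb4, a paralogue, was near the limit of detection at 0.889 and 1.76 CPM. Pdk1, a kinase that inhibits pyruvate dehydrogenase, was at 32.9 and 49.4 CPM.

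Of the HIF factors, one was higher and the other lower. Hif1a was at 82.8 and 144 CPM (1.74-fold higher, 1.67 to 1.81). Epas1, which encodes the endothelial-rich HIF-2α, was at 790 and 420 CPM and so 1.88-fold lower in sph/sph (1.85 to 1.91). Neither passed 2-fold. HIF proteins are controlled mainly through their stability, which transcript counts do not show.

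The HIF targets, unlike the enzymes, had ratios on both sides of 1. Of 13 listed, 11 were measured: 2 lay 2-fold or more above their sph/+ level, 2 lay 2-fold or more under it and 7 in between, with a median log2 ratio of 0.10. Their summed level was nearly the same, 997 and 942 CPM (ratio 0.945, 0.933 to 0.957). The sum hides a spread from Ndrg1 at a log2 ratio of −1.09 to Ankrd37 at 4.19. Among all measured genes 11% lay 2-fold or more above their sph/+ level and 10.6% 2-fold or more under it.

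Ankrd37, an ankyrin-repeat gene known as a strongly induced HIF-1 target (chromosome 8, 45996902 to 46005707), had the largest ratio of the measured genes. It stood at 4.34 CPM in sph/+ (205 UMIs) and 96.1 CPM in sph/sph (4923 UMIs), 22.2-fold higher (19.3 to 25.6). Adm, which encodes the vasodilator peptide adrenomedullin, was at 40.1 and 169 CPM (4.21-fold, 4.01 to 4.43). Egln3, an oxygen-sensing hydroxylase that HIF itself induces, stayed under 20 CPM but went from 109 UMIs in sph/+ to 787 in sph/sph, 2.31 and 15.4 CPM. Car9, carbonic anhydrase 9, a widely used hypoxia marker, gave 3 UMIs in sph/+ and 33 in sph/sph (ratio 10.2, 3.19 to 51.8), both at the edge of detection.

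Smaller differences upward were seen for Mxi1, a MYC antagonist, at 24.4 and 46.8 CPM, and for Bnip3, a mitophagy receptor, at 17.6 and 29.6 CPM. Ero1l, an oxidase of the endoplasmic reticulum, was at 34.1 and 41.5 CPM. Egln1, the main oxygen sensor, was at 109 and 114 CPM, and Higd1a, a mitochondrial protein, at 81.5 and 87.6 CPM. The log2 ratios of the last pair were 0.062 and 0.10, and that of Higd1a ran from −0.0092 to 0.18 under other ways of processing.

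Lower in sph/sph were Bnip3l, the mitophagy receptor also called NIX, at 295 and 144 CPM (2.04-fold lower, 1.98 to 2.10), and Ndrg1, a stress-responsive gene, at 298 and 140 CPM (2.14-fold lower, 2.08 to 2.20). Bnip3l lies just past the 2-fold line and fell short of it under 9 of 17 other ways of processing, where its log2 ratio ran from −1.05 to −0.93. Also lower, short of 2-fold, were Ddit4, an inhibitor of mTORC1, at 45.2 and 25.4 CPM, and Kdm3a, a histone demethylase, at 45.2 and 32.1 CPM. Bnip3 and Bnip3l, closely related receptors, thus differed between the libraries in opposite directions.

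Genes of the same pathways outside the 36, taken from lists drawn up with earlier results of these data known, gave a mixed picture. Of 18 other glycolysis isoforms only the lactate dehydrogenase subunit Ldhb was measured, and it was lower in sph/sph, at 93.2 CPM against 9.92 CPM. Ldha, the other subunit, differed in the opposite direction. Of 11 genes of pyruvate entry into the mitochondrion 7 were measured, none was 2-fold higher and 1 was 2-fold lower: Pdk4, a kinase that spares pyruvate, at 25.8 and 1.64 CPM. The pyruvate carrier subunits Mpc1 and Mpc2 had log2 ratios of −0.58 and −0.51, and Pdha1, a pyruvate dehydrogenase subunit, −0.27. All 7 had log2 ratios below 0.

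In the pentose phosphate pathway, which branches from glucose 6-phosphate, 6 of 7 genes were measured and none passed 2-fold in either direction, with log2 ratios from −0.40 for Rpe to 0.73 for the transketolase Tkt. Likewise none of the 7 measured genes of 10 in the oxygen-sensing machinery passed 2-fold. Arnt, the HIF partner, was at 59.9 and 41.6 CPM, the factor inhibiting HIF, Hif1an, at 31.4 and 24.3 CPM, and the ubiquitin ligase subunits Elob and Rbx1 had log2 ratios of 0.36 and 0.23.

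A longer list held 40 other HIF targets, many of them vascular or secreted. Of its 27 measured genes 13 lay 2-fold or more above their sph/+ level, beside 11% of all measured genes. Under it by 2-fold or more lay 1, beside 10.6%, and the median log2 ratio was 0.94. Of the 27, 8 reached 20 CPM only in sph/sph, which by itself favours a high ratio. Angptl4, a secreted inhibitor of lipoprotein lipase, went from 0.571 CPM in sph/+ (27 UMIs) to 144.6 CPM in sph/sph (7401 UMIs), a log2 ratio of 6.53. Pgf, a VEGF-family ligand, was at 0.0846 and 26.1 CPM, the lipoprotein receptor gene Vldlr at 0.0635 and 24.0 CPM, and the chemokine receptor gene Cxcr4 at 0.381 and 26.6 CPM. The 1 lower gene, Zfp395, named after its value was seen, was at 47.6 and 11.8 CPM.

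Other values that moved with these ratios were the summed immediate early and heat shock genes (5804 and 7691 CPM, 21 of 21 genes measured), the ribosomal protein genes (8.34% and 11.3% of UMIs), and the cycling markers (214 and 550 CPM over 13 genes). Markers of other cell types were also counted in these cells. Stellate or fibroblast markers stood at 61.2 and 392 CPM over 8 genes, with 2 measured and both at least 2-fold higher, and none at 0. Mesothelial markers stood at 0.106 and 130 CPM over 3 genes, with 1 measured and higher, and Msln at 0 in both libraries. Of 5 erythroid markers 2 were measured, and both were at least 2-fold higher. Hepatocyte markers stood at 92.3 and 134 CPM over 10 genes, with 1 measured, none past 2-fold and none at 0. The part of any of these in the ratios was not tested.

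To describe the genes by kind of cell, clusters were found without any of them, or the other pathway genes, among the genes used for clustering. Endothelial clusters of at least 50 cells numbered 7 in sph/+ and 9 in sph/sph, and they are named by their leading genes. The enzyme sum separated the libraries cluster by cluster. In sph/+ it ran from 1461 CPM in the LSEC-like cells led by interferon-induced genes (Ifit1 and Cmpk2, 517 cells) to 2168 CPM in the Nrg1 and Adgrg6 cluster (396 cells). In sph/sph it ran from 2689 CPM in the Vwf and Fbln5 cluster (263 cells) to 4666 CPM in the Tnfrsf9 and Igfbp3 cluster (2267 cells). The lowest sph/sph cluster was thus above the highest sph/+ cluster. This order depended on the 50-cell limit and on how finely the cells were divided. The 40 sph/+ cells of the Sprr2b and Tubb3 cluster, under that limit, stood at 3079 CPM. At a finer resolution a cluster led by Rspo3, Inhba and Wnt9b held 74 sph/+ and 230 sph/sph cells, and its sph/+ cells stood at 2961 CPM. That was above the 2684 CPM of the Vwf and Fbln5 cluster of sph/sph at that resolution. The HIF target sums overlapped, from 757 to 1148 CPM in sph/+ and from 655 to 1295 CPM in sph/sph.

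**Figure D2:**
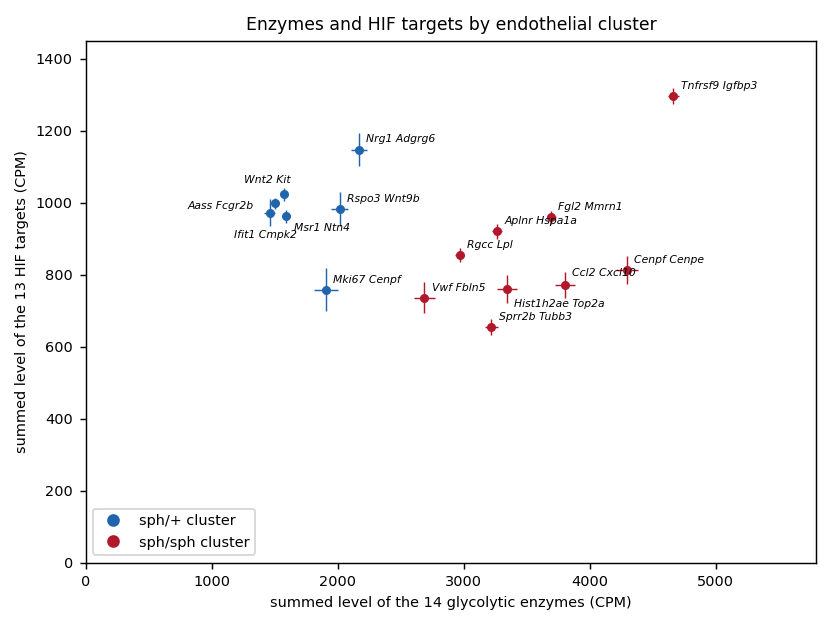
Summed level of the 14 enzymes (horizontal axis, CPM) against that of the 13 HIF targets (vertical axis, CPM) in each of the 7 sph/+ and 9 sph/sph endothelial clusters, each labelled by its 2 leading genes, with 95% counting intervals as bars. Among these clusters, each of at least 50 cells, the libraries separate along the enzyme axis and overlap along the HIF target axis. No sph/+ cluster shown lies above 2168 CPM in enzymes and no sph/sph cluster below 2689 CPM.

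Gene by gene, 8 of the 36 had all 9 sph/sph clusters above all 7 sph/+ clusters: Slc2a1, Aldoa, Eno1, Pkm, Ldha, Pfkfb3, Hif1a and Ankrd37. Over all measured genes 5.16% showed this order. The gap was wide for Slc2a1, whose highest sph/+ cluster stood at 8.28 CPM and lowest sph/sph cluster at 20.1 CPM, and narrow for Pfkfb3 (30.2 and 31.6 CPM) and Eno1 (111.5 and 113.4 CPM). Bnip3l alone showed the reverse order, with all sph/sph clusters below all sph/+ clusters (213.9 against 216.7 CPM at the nearest), as did 6.98% of measured genes. At the finer resolution only Slc2a1 kept its order. Aldoa, for example, stood at 484 CPM in the sph/+ cells of the Rspo3, Inhba and Wnt9b cluster and at 272 CPM in a cycling cluster of sph/sph. Bnip3l overlapped as well, at 240 CPM in an Igfbp3 and Rbp7 cluster of sph/sph and 215 CPM in a Kit and Mrc1 cluster of sph/+. Clusters of 1 library share its mouse and preparation and are not replicates.

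Within sph/+ the LSEC-like clusters differed little. The Aass and Fcgr2b cells (3755), the Wnt2 and Kit cells of the central side (2572), and the Msr1 and Ntn4 cells of the portal side (2281) had enzyme sums of 1501, 1574 and 1593 CPM and HIF target sums of 998, 1023 and 962 CPM. A pair of small clusters stood above them in enzymes. The Rspo3 and Wnt9b cells (470), which carry pericentral markers, had 2018 CPM, and the Nrg1 and Adgrg6 cells, which carry portal-side markers, had 2168 CPM. Against the library's other endothelial cells, the median log2 ratio of the measured enzymes was 0.50 in the Nrg1 and Adgrg6 cluster. It was 0.39 in the Rspo3 and Wnt9b cluster. The medians over all measured genes were −0.012 and 0.053.

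Among the measured genes Ddit4 had the widest range over the sph/+ clusters. It stood at 310.7 CPM in the Nrg1 and Adgrg6 cluster and 81.5 CPM in the Msr1 and Ntn4 cluster, but at 10.9 to 24.4 CPM in the other 5. Ndrg1 ran the other way along the same clusters, with 109.6 CPM in the Nrg1 and Adgrg6 cells, 191 CPM in the Msr1 and Ntn4 cells and 383 CPM in the Wnt2 and Kit cells. Adm was likewise lowest in the Nrg1 and Adgrg6 cells, at 8.28 CPM, and highest in the Aass and Fcgr2b cells, at 51.4 CPM. Against the library's other endothelial cells, 2 of the 25 genes measured in this comparison were at least 2-fold higher in the Nrg1 and Adgrg6 cluster (Ddit4 and Eno1), beside 4.96% of all measured genes, and 2 were at least 2-fold lower (Ndrg1 and Adm), beside 6.74%. The immediate early and heat shock genes were also highest there, at 8681 CPM against 4846 to 7124 CPM in the other 6 sph/+ clusters. Their part in the Ddit4 gradient was not tested.

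In the Rspo3 and Wnt9b cluster of sph/+, Ankrd37 stood at 22.1 CPM and Slc16a3 at 12.2 CPM, each the highest of the 7 clusters. Ankrd37 was at 1.21 to 8.28 CPM elsewhere in sph/+. Pdk1 also peaked there, at 58.0 CPM. In this cluster 1 of 27 measured genes was at least 2-fold higher than in the rest of the library (Ankrd37), beside 3.28% of all genes. In the other direction 1 was lower (Adm), beside 2.39%. Ankrd37 reached 20 CPM only in this cluster, which by itself favours a high ratio. Adm reached it only in the rest of the library, which favours a low one. The 96 cycling cells of sph/+ departed from the rest in single enzymes. Gapdh stood at 743 CPM and Tpi1 at 153.8 CPM, each the highest in sph/+, whereas Aldoa was at 19.4 CPM against 141 to 279 CPM in the other 6 clusters.

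**Figure D3:**
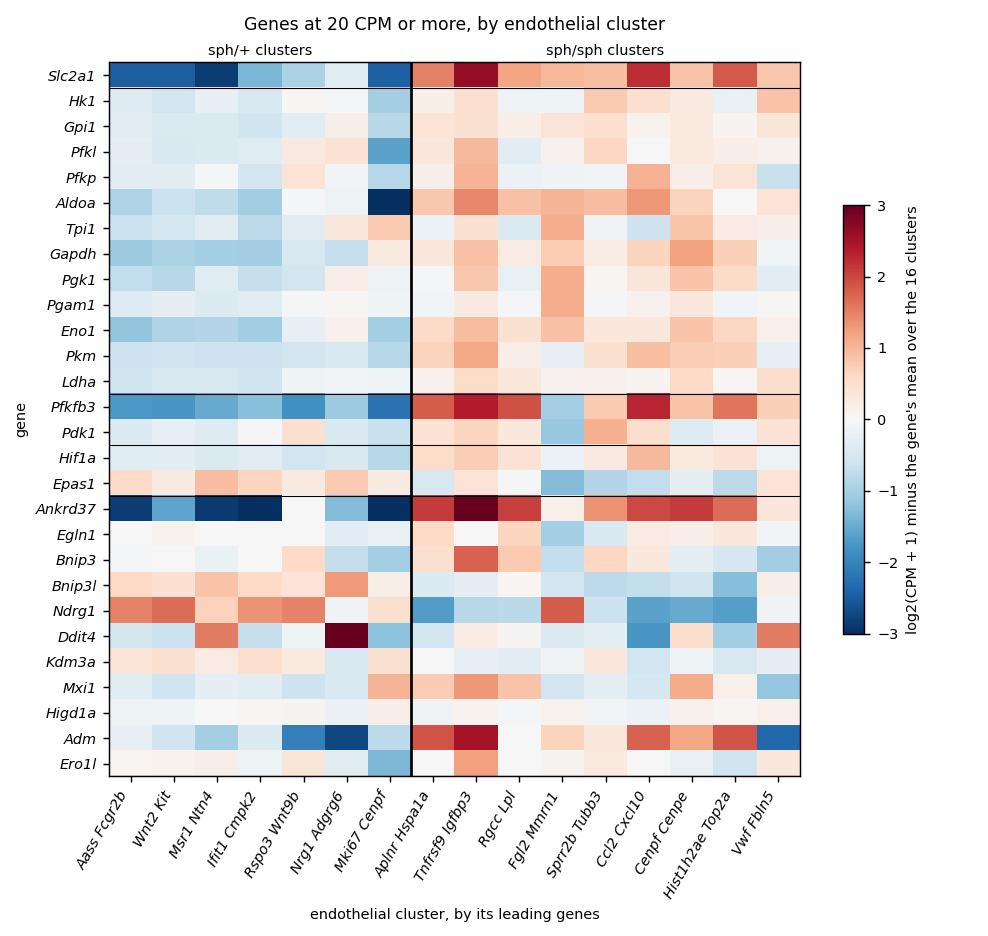
Levels of the 28 measured genes (rows, grouped by role and divided by horizontal lines) in the 16 endothelial clusters (columns, by their 2 leading genes, sph/+ left of the vertical line and sph/sph right of it), as log2(CPM + 1) minus the mean of the gene over the 16 clusters. The enzyme rows are mostly below their mean on the left and above it on the right, Slc2a1, Pfkfb3 and Ankrd37 are highest in the Tnfrsf9 and Igfbp3 column, and Ndrg1 is highest in the Fgl2 and Mmrn1 column.

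In sph/sph the measured genes of the Tnfrsf9 and Igfbp3 cluster had a median log2 ratio of 0.46 to the library's other endothelial cells. The median over all genes measured there was −0.016. Relative to the library's other endothelial cells, 8 of the 30 genes measured in this comparison were at least 2-fold higher: Slc2a1, Slc16a3, Pfkfb3, Ankrd37, Bnip3, Mxi1, Adm and Ero1l. Among all genes measured there 2.27% were at least 2-fold higher in this cluster and 4.72% at least 2-fold lower, the latter including Ndrg1. Slc16a3, at 12.9 CPM over all sph/sph endothelial-like cells, was measured only through its level in this cluster. Such an entry by itself favours a high ratio. The enzyme sum was 1.38 times, the HIF target sum 1.51 times and the transporter sum 2.45 times that of the other endothelial cells. Without Gapdh the enzyme ratio was 1.41.

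The levels in this cluster set the library's range for several genes. Slc2a1 stood at 73.2 CPM (68.0 to 78.8), against 54.4 CPM in the next cluster and 20.1 CPM in the lowest. Ankrd37 was at 217.5 CPM, with 97.7 CPM in the next and 24.5 CPM in the lowest, and Adm at 348 CPM, with 229 CPM in the next. Bnip3 was at 64.7 CPM, against 8.43 to 32.1 CPM in the other 8 clusters. Among the enzymes Pkm was at 1000.1 CPM and Aldoa at 793 CPM, both highest there. Of the 4 HIF targets with a lower level in sph/sph as a whole, Ddit4 was at 31.7 CPM and Bnip3l at 157 CPM, 1.33 and 1.11 times the level in the other endothelial cells. Kdm3a was at 29.5 CPM and Ndrg1 at 65.6 CPM, 0.902 and 0.417 times that level. This cluster also had the highest level of immediate early and heat shock genes in the data, 9563 CPM. Their part in the levels above was not tested.

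The Ccl2 and Cxcl10 cluster (536 cells), led by chemokine and stress genes, shared part of the pattern. Pfkfb3 was at 322 CPM, close to the 340 CPM of the Tnfrsf9 and Igfbp3 cells, Slc2a1 at 54.4 CPM, and Hif1a at 216 CPM, its highest level in either library. None of its 28 measured genes was 2-fold higher than in the rest of the library, beside 1.59% of all genes, and 4 were lower (Tpi1, Ndrg1, Ddit4 and Mxi1), beside 5.99%. The Aplnr and Hspa1a cells (2413) and the Rgcc and Lpl cells (2254), the other large continuous vascular-like clusters, had enzyme sums of 3267 and 2969 CPM. Both held Pfkfb3 above 230 CPM (231.5 and 250.3), and both had Egln1 at its highest (164 and 169 CPM). They differed in Adm, at 229 CPM in the former and 61.6 CPM in the latter.

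The Vwf and Fbln5 cells had the lowest enzyme sum of sph/sph, 2689 CPM, yet the highest Epas1 (701 CPM), Bnip3l (213.9 CPM) and Ddit4 (81.7 CPM). Adm was at its lowest of the 9 clusters in them. In the cycling cells led by Cenpf and Cenpe (384), Gapdh reached 1428 CPM, the highest in either library, and the enzyme sum was 4294 CPM. The other cycling cells, led by Hist1h2ae and Top2a (371) had 3345 CPM.

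The Fgl2 and Mmrn1 cluster (1157 cells), lymphatic-like by its markers, combined enzymes near the library's level with low Pfkfb3, Pdk1, Ankrd37 and Epas1. Its enzyme sum was 3695 CPM, beside 3635 CPM in all sph/sph endothelial-like cells. The median log2 ratio of its enzymes to the library's other endothelial cells was 0.019. Single enzymes departed from this, with Tpi1 (190 CPM), Pgk1 (333 CPM) and Pgam1 (217 CPM) at their highest. Pfkfb3 was at 31.6 CPM, Pdk1 at 17.9 CPM, Ankrd37 at 24.5 CPM and Epas1 at 211 CPM, each the lowest of the 9 clusters. The remaining flux regulator, Pfkfb4, was at 1.56 CPM, in a range of 0.432 to 8.16 CPM over the 9. Ndrg1 was at 417 CPM there and at 36.4 to 109.6 CPM in the other 8, so that this cluster held 67.5% of the library's endothelial Ndrg1 UMIs. Egln3 peaked there too, at 27.9 CPM. Relative to the rest of the library, 4 of its 29 measured genes were at least 2-fold higher, beside 9.64% of all genes. At least 2-fold lower were 7, beside 14.3%. Of the 4, Egln3 was measured only through its level in this cluster, which by itself favours a high ratio. These cells were deep, with a median of 9747 UMIs, had the highest ribosomal share (17.5%), and carried stellate or fibroblast markers at 1382 CPM against 4.54 to 51.3 CPM in the other sph/sph clusters. The part of these in its levels was not tested.

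With the lymphatic-like cells left out, the log2 ratio of Ndrg1 between the libraries was −2.33, against −1.09 with them, and the median of the HIF targets was 0.27. The count at least 2-fold higher was again 9, with Mxi1 (log2 ratio 1.12) past the line in place of Pgk1, and the enzyme median was 0.76.

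Because the libraries held different kinds of cells, the comparison was repeated in cells given the same class or cluster in both. Cycling endothelial-like cells numbered 127 in sph/+ and 757 in sph/sph. Their enzyme sum was 1926 and 3835 CPM (1.99-fold, 1.90 to 2.09), with 5 of 12 measured enzymes at least 2-fold higher and a median log2 ratio of 0.82. Of the HIF targets 3 of 10 were higher and 2 lower, with a median of 0.16 and sums of 785 and 787 CPM. Of the 3, Ankrd37 and Ddit4 reached 20 CPM only in sph/sph, which by itself favours a high ratio. Over all genes measured in these cells 9.68% were higher and 14.4% lower. Aldoa was at 23.3 and 378 CPM and Pfkfb3 at 13.6 and 159 CPM. Slc2a1 and Ankrd37 each gave 1 UMI in sph/+, against 127 and 352 in sph/sph. The main cycling cluster of sph/+ had 12 of 12 LSEC markers in at least 25% of its cells, and each of those of sph/sph had 1, so the type of vessel was not matched.

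A finely resolved cluster led by Rspo3, Inhba and Wnt9b, genes of central vein endothelium, held 74 cells of sph/+ and 230 of sph/sph. It came from clustering at a resolution chosen after the data were seen, because the coarser clustering joined these cells to others. In it the enzymes barely differed: the sum was 2961 and 3750 CPM (1.27-fold, 1.19 to 1.35), the median log2 ratio was 0.19, and 1 of 12 measured enzymes (Hk1) was at least 2-fold higher. Tpi1 was lower, at 182 and 111 CPM. Over all genes measured in this cluster 12.1% were higher and 12.1% lower, beside 11% and 10.6% in all endothelial-like cells. Its sph/+ part held 378227 UMIs, against 47269552 in all sph/+ endothelial-like cells, so counting error weighs more in its shares. Whether its cells were more alike than the libraries as a whole cannot be read from them. The enzyme sum of the sph/+ cells of this cluster was above that of every one of the 7 sph/+ clusters at the coarser resolution.

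In these cells the HIF targets were lower in sph/sph, at 928 and 635 CPM (ratio 0.684, 0.604 to 0.776), with 2 of 12 measured at least 2-fold higher and 3 lower. Bnip3l (246 and 99.1 CPM), Bnip3 (50.2 and 22.5 CPM) and Ddit4 (68.7 and 31.6 CPM) were the lower ones. Adm (15.9 and 40.8 CPM) and Egln3 (5.29 and 22.5 CPM) were the higher ones. Adm and Egln3 reached 20 CPM only in sph/sph, which by itself favours a high ratio. Ankrd37 and Pfkfb3 had 13 UMIs each in sph/+, and the intervals of their ratios, 0.881 to 3.13 and 0.869 to 3.09, include 1. For Slc2a1 the 2 UMIs in sph/+ and 28 in sph/sph gave a ratio of 3.72 (0.939 to 32.2). The HIF factors kept the order seen in the whole libraries, with Hif1a at 45.0 and 107.6 CPM and Epas1 at 457 and 208 CPM.

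A further comparison set the sph/+ LSEC-like cells (9991) beside the 792 sph/sph cells of a finely resolved cluster led by Sprr2b, Tubb3 and Rgs2, which the naming rule placed among LSEC-like cells at this resolution. At the coarser resolution the rule placed only 4 sph/sph cells in that class and called the Sprr2b and Tubb3 cluster continuous vascular-like, so the class of these cells depended on the resolution. The enzyme sum was 1587 and 3014 CPM (1.90-fold, 1.86 to 1.94), the median log2 ratio was 0.89, and 4 of 12 measured enzymes were at least 2-fold higher. Over all genes 10.8% were higher and 10.9% lower. Slc2a1 was at 1.67 and 22.0 CPM, Pfkfb3 at 20.8 and 138 CPM, and Ankrd37 at 4.29 and 58.3 CPM. The HIF targets summed to 1001 and 663 CPM (ratio 0.663), with Ndrg1 at 301 and 64.2 CPM. Slc16a3, at 2.24 and 32.1 CPM, was 14.3-fold higher (10.9 to 18.9).

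**Figure D4:**
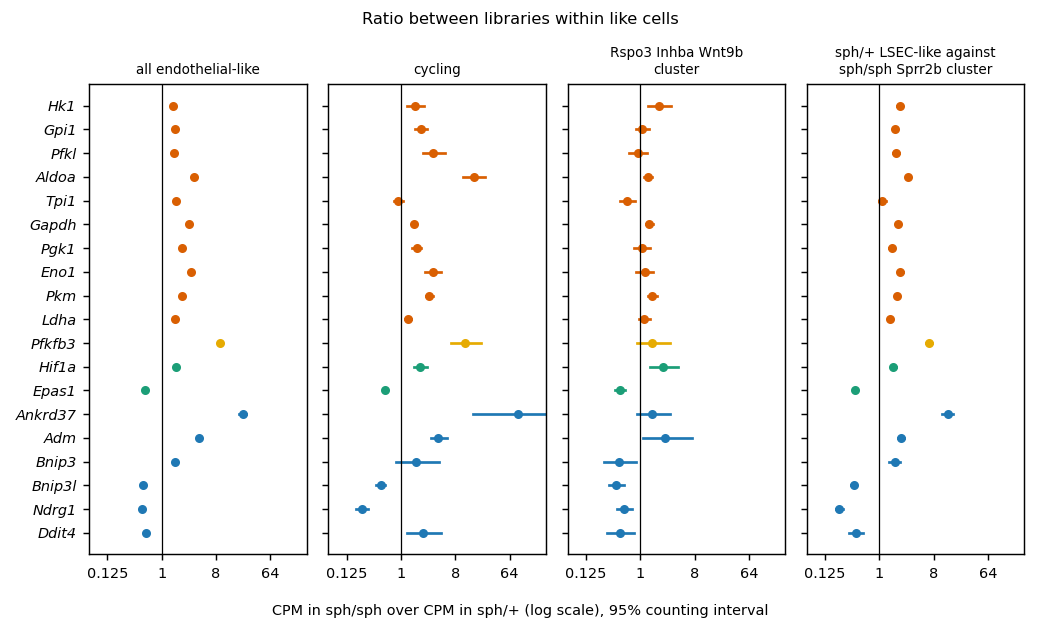
Ratio of CPM, sph/sph over sph/+, for 19 of the genes (rows) in 4 comparisons (panels: all endothelial-like cells, cycling cells, the Rspo3, Inhba and Wnt9b cluster, and sph/+ LSEC-like cells against the sph/sph Sprr2b cluster), on a log axis with 95% counting intervals as bars, coloured by role as in the plot of ratios by role. The enzyme points sit near 1 in the Rspo3, Inhba and Wnt9b panel and mostly to the right of it in the other 3, while Hif1a lies above 1 and Epas1 and Bnip3l below 1 in all 4.

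Shares of cells were compared after thinning each cell to 2000 UMIs, which left 9813 sph/+ and 9765 sph/sph cells. At this depth Slc2a1 was found in 0.336% of sph/+ cells (exact Clopper-Pearson interval 0.232 to 0.472) and 6.74% of sph/sph cells (6.25 to 7.25). The corresponding shares were 0.876% and 16.6% for Ankrd37, 3.93% and 30.5% for Pfkfb3, and 7.42% and 21.9% for Adm. Before thinning, Slc2a1 was found in 0.772% and 14.7% of cells. For 6 of the 28 measured genes the share was at least 2-fold higher in sph/sph, beside 10.3% of all measured genes. For 1, Ndrg1, it was at least 2-fold lower (42.1% and 14.9%), beside 9.99%. The level that free RNA alone could give was read in 130 hepatocyte-marked cells with almost no endothelial markers, thinned to 1000 UMIs (median 1728 before), as the cells were shallow. Of these cells 118 came from sph/sph and 12 from sph/+. Slc2a1 was found in 0.769% of them, Ankrd37 in 3.08%, Pfkfb3 in 3.85% and Adm in 2.31%. At the same depth the sph/sph endothelial shares were 3.57%, 8.84%, 19.2% and 12.9%. Those of Ankrd37, Pfkfb3 and Adm lay above the exact intervals of the hepatocyte-marked cells, which reached 7.69%, 8.75% and 6.60%. That of Slc2a1 did not, since its value rested on 1 cell of 130 (0.0195 to 4.21%). The sph/+ endothelial shares were 0.166%, 0.479%, 2.23% and 4.20%. With only 12 of these cells from sph/+, the background of that library was not measured, and whether its low counts of Slc2a1 and Ankrd37 are above it was not tested.

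Over the 7 sph/+ clusters, Spearman's rho between the enzyme and HIF target sums was 0.18 (Pearson's r 0.15), and over the 9 sph/sph clusters it was 0.53 (r 0.66). The enzyme sum had a rho of 0.14 with the median UMIs per cell in sph/+ and −0.03 in sph/sph. With the immediate early and heat shock sum the rho was 0.75 in sph/+ and 0.18 in sph/sph. These are descriptions over few clusters that share a library, with no test.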

How the data were processed

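The deposited files hold, for each library, a sparse matrix of UMI counts per gene and cell barcode with its gene and barcode lists. The submitters' processing notes name Cell Ranger 3.0 and mm10, the matrix headers name software version 3.1.0, and the deposited counts are not normalized. The libraries held 13136 barcodes with 64460283 UMIs (sph/+) and 16386 with 68983780 (sph/sph).

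Barcodes were kept at 500 genes or more, 1000 UMIs or more and at most 15% mitochondrial UMIs (12304 and 13094). Scrublet's own threshold marked 0% as doublets, so its score was used to mark 10.9% and 13.5%, close to the share expected at 0.8% per 1000 barcodes. Cells were clustered with scanpy 1.11.5 and leidenalg 0.10.2 (2000 variable genes without the 36 genes and the other pathway genes, 30 components, 15 neighbours, resolution 1.0). Clusters were named from fixed marker lists, with the number of markers required set after the data were seen.

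Counts were summed over endothelial-like cells and scaled to CPM. Ratios carry exact binomial intervals of the pooled count and levels exact Poisson intervals. The script was tested on simulated data. All 36 genes are reported, as are up to 4 measured genes per other list with the largest absolute log2 ratio. The members and lists were chosen with earlier results of these data known. Gene coordinates are from GENCODE on GRCm38 (mm10), with promoter windows from RefSeq on GRCm38.p6. Levels are not compared between genes. Alternatives covered the cells, doublets, scaling, depth, floor, added value and clustering.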

Additional observations from a re-analysis of the deposited data

Results flagged for a closer look

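Ddit4, the mTORC1 inhibitor, differed between the libraries in opposite directions in classes or clusters with cells from both libraries. Its log2 ratio of sph/sph over sph/+ was 1.13 in cycling cells (12 and 111 UMIs), −2.16 in the coarser Sprr2b and Rspo3 cluster (40 and 1024 cells) and −1.10 in the finer Rspo3, Inhba and Wnt9b cluster, which shares cells with it. The cycling cells were not matched by vessel type, and at the finer resolution 792 sph/sph cells led by Sprr2b formed a cluster apart from the Rspo3, Inhba and Wnt9b cells. It was picked out because 1 comparison lay at least 2-fold above and another at least 2-fold below. The difference between these ratios was not tested, as each rests on 1 library per genotype.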

How the results depend on the processing

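Results were recomputed under 17 alternatives. The count of genes at least 2-fold higher ran from 8 to 11. The count at least 2-fold lower, 2 in the main analysis, was 1 without lymphatic-like cells, without cycling cells, without both, over all kept cells, at 10% mitochondrial UMIs, with median-of-ratios scaling, with totals lacking mitochondrial and ribosomal genes, with cells weighted equally and with 10 CPM added. In these Bnip3l fell short. It was 3 at a floor of 5 CPM. The enzyme median moved to 0.84 with median-of-ratios scaling, 0.69 with cells weighted equally and 0.72 with 10 CPM added. The HIF target median moved to 0.27 without lymphatic-like cells, with or without cycling cells, 0.18 with median-of-ratios scaling, 0.21 with cells weighted equally or thinned to 2000 UMIs, and 0.19 at 5 CPM. The sign held under all alternatives for 27 of 28 measured genes (not Higd1a), and 9 of 11 called genes stayed past 2-fold (not Bnip3l and Pgk1, the latter from 0.81 to 1.17).

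The highest over the lowest enzyme sum among sph/+ clusters was 1.48, and moved to 2.64 at resolution 2.0 and 1.90 with pathway genes among the variable genes. Among sph/sph clusters it was 1.74 and moved to 1.30 at resolution 0.5, as the HIF target fold did from 1.98 to 1.55. In the coarser Sprr2b and Rspo3 cluster the enzyme median was 0.0050, against 0.77 over all endothelial-like cells and 0.19 in the finer cluster, and the HIF target median there, −0.43, reversed to 0.10 over all cells. In the Cenpf and Cenpe cluster the medians were 1.06 and 0.25, against 0.77 and 0.10. The cause was not tested. No paired analysis was possible because each genotype has 1 library and the labels give no replicate numbers. Depth limits Slc2a3, Aldoc, Pfkfb4 and Car9, all under 2 CPM.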

Other observations

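Lactate dehydrogenase is built from A and B subunits, and both are transcribed in these cells. Ldha stood at 223 CPM in the heterozygous library and 376 CPM in the homozygous one, whereas Ldhb stood at 93.2 and 9.92 CPM. Ldhb was represented by 4404 UMIs in sph/+ and 508 in sph/sph.

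Several vascular HIF targets outside the 36 genes, chosen for mention after their values were seen, had higher levels in sph/sph. Vegfa, the main endothelial growth factor, stood at 10.2 and 118 CPM. The collagen-modifying enzyme gene Plod2 was at 1.95 and 28.6 CPM, and Stc1, a secreted glycoprotein, at 5.71 and 65.7 CPM. Vegfa, Plod2 and Stc1 reached 20 CPM only in sph/sph. Edn1, the vasoconstrictor endothelin 1, was at 29.5 and 157 CPM. Among targets closer to metabolism, Hilpda, a lipid droplet protein, was at 28.5 and 73.5 CPM, and Hmox1, haem oxygenase 1, at 39.8 and 93.6 CPM. Of the 27 measured genes of that list 20 had a log2 ratio above 0. Those below 0 included P4ha1, at 79.7 and 61.5 CPM, and Insig2, at 58.4 and 39.6 CPM.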
